A study of Mus musculus with 8 samples.

Results

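The regions described here are the 5hmC peaks that embryonic stem cells (ESCs) shared with adult brain and with neither mouse embryonic fibroblasts (MEFs) nor adult liver. They were chosen by the positions of called peaks alone, as the nuclear peaks of the ESC list that overlapped at least 1 bp of a brain peak and no base of any MEF or liver peak. Of the 171865 nuclear ESC peaks, 15535 met this rule, which is 9.04% (exact 95% interval 8.90 to 9.18%). 5-Hydroxymethylcytosine (5hmC) was mapped by GLIB-Seq, in which a glucose is placed on each 5hmC, oxidised and coupled to biotin so that the marked DNA fragments can be pulled down and sequenced. The ESCs were the unmodified line E14, grown in culture. Brain and liver came from C57BL/6 mice aged 8 weeks, and the MEFs were primary C57BL/6 cells that the sample labels place at embryonic day 11, whereas the methods name a later day. A further pair of E14 libraries took no part in the choice of the peaks and served as separate measurements of ESCs. In these, E14 cells had received a short hairpin RNA, either one to GFP as the control (shGFP) or one to the Polycomb gene Suz12 (shSuz12), and had been kept under puromycin. The sources used here do not name the Suz12 hairpin of the GLIB-Seq library. Brain was taken as a whole tissue, so neurons, glia and vessels cannot be told apart in its list. There was 1 library for each cell type or hairpin, so differences between libraries were not tested, and all intervals are exact (Clopper-Pearson) 95% intervals that cover counting error only.

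5hmC is made from 5-methylcytosine by the Tet dioxygenases and lies almost entirely at CpG dinucleotides. It is abundant in ESCs, which express Tet1 and Tet2, and is most abundant in brain, where it builds up in the bodies of neuronal genes as neurons mature. It serves as an intermediate of DNA demethylation and is also a lasting mark read by nuclear proteins.

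To show what these regions look like, the central 300 bp of 8 of them are printed 5′ to 3′ on the plus strand of mm9, with every CpG, the dinucleotide that can carry 5hmC, in capitals. The first 4 are the member of highest ESC score in each of the 4 genes with most members, and the fifth is the highest-scoring intronic member of Grik3, which was chosen after its values were seen. The last 3 are the highest-scoring members at a promoter. The member of Gm20388 (chr8:124277675-124277974) is intronic and lies also in Jph3, that of Camta1 (chr4:150518508-150518807) is in a coding exon, and that of Cdh13 (chr8:121819446-121819745) is intronic. The member of Fgfr2 (chr7:140189661-140189960) is intronic and lies also in Ctbp2, and that of Grik3 is at chr4:125191297-125191596. The Plvap region (chr8:74036012-74036311) is just upstream of the gene, and those of 4933416C03Rik (chr10:115550623-115550922) and Syce3 (chr15:89240709-89241008) have their midpoint in a non-coding part of an exon. The region of 4933416C03Rik lies also in Ptprr.
Gm20388 and Jph3: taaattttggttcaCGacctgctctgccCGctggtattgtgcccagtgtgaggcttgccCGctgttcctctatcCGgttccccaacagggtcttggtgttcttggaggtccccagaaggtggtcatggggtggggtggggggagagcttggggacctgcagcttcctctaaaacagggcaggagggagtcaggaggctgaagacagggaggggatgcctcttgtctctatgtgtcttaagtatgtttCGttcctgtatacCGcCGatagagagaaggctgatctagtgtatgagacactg
Camta1: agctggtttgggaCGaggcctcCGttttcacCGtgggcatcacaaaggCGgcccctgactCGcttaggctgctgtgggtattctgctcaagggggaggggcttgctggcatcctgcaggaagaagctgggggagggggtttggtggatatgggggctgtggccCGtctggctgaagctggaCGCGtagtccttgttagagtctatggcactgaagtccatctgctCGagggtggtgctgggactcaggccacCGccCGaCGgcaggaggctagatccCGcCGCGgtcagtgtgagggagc
Cdh13: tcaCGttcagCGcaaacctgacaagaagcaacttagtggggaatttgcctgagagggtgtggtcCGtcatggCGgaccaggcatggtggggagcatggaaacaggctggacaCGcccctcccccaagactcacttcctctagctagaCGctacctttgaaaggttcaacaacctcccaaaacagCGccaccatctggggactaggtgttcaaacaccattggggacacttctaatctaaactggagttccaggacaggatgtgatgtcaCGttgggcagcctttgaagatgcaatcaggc
Fgfr2 and Ctbp2: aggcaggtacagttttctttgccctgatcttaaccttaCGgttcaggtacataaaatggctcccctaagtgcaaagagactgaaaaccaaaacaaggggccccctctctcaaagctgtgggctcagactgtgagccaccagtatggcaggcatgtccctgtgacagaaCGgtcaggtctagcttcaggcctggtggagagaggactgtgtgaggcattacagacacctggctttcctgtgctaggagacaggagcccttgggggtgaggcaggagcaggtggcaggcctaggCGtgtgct
Grik3: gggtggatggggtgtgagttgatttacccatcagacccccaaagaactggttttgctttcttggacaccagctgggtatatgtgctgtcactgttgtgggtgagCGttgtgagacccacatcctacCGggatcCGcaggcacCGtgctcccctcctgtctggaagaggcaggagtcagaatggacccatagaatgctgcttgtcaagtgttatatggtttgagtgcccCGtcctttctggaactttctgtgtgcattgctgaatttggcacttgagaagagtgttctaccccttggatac
Plvap: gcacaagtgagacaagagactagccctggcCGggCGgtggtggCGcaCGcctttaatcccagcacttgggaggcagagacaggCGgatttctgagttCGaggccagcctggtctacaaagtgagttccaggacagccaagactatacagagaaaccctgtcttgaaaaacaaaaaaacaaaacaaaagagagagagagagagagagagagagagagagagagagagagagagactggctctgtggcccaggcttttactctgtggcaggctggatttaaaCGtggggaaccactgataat
4933416C03Rik: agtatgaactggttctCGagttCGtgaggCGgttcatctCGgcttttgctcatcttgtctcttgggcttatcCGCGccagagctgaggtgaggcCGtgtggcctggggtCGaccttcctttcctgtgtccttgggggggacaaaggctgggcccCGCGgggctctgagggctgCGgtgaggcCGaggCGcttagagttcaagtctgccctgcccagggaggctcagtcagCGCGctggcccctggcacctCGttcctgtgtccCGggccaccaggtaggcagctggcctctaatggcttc
Syce3: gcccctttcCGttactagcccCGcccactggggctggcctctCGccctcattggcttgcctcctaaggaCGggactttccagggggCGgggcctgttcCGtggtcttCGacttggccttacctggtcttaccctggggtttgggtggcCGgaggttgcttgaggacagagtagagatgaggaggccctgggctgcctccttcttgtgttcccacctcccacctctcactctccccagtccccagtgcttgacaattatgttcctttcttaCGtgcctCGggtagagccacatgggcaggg

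These stretches held between 3 CpGs (Fgfr2 and Ctbp2) and 17 CpGs (4933416C03Rik) in 300 bp. The coding-exon stretch of Camta1 had 15 CpGs and a GC content of 63%. The intronic ones of Gm20388, Cdh13 and Grik3 had 7, 8 and 5 CpGs and a GC content of 55, 53.3 and 51.7%. Each of these 8 peaks, picked for a high ESC score, was met by a peak in both of the other ESC libraries. The MACS score of a peak, which is its p-value as a negative log10 multiplied by 10, was 3128 for the Gm20388 member in ESCs and 791 for the shGFP peak that met it, but 48.6 for the brain peak. For the Camta1 member it was 847 in ESCs and 103 in brain. The Grik3 member, with 825 in ESCs and 45.8 in brain, lay only 39 bp from the nearest MEF peak, while the Plvap member was 12292 bp from the nearest MEF peak and 7199 bp from the nearest liver peak.

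Over the whole set, CpGs were about as dense as in other ESC peaks. Members had a median of 1.73 CpGs per 100 bp (upper quartile 2.11) against 1.71 in all ESC peaks, 1.58 in peaks of ESCs only, 1.54 in peaks of ESCs and liver only and 0.834 over the genome. Their median GC content was 49.4%, against 48.9% in all ESC peaks. None of the 15535 members lacked a CpG, which allows a share of up to 0.0237% (exact interval). The same was not counted over all ESC peaks, so it is not read as a trait of members. At least 2 CpGs per 100 bp were held by 31.2% of the members and 30.6% of all ESC peaks. Within the set, CpGs were densest at exons and promoters, with medians of 2.08 per 100 bp in both, and sparser in introns (1.67) and outside genes (1.68).

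The members were peaks of ordinary width and score for ESCs. Their median width was 832 bp (quartiles 699 and 1122 bp, range 341 to 9193 bp), beside 844 bp in all ESC peaks, 750 bp in peaks of ESCs only, 790 bp in peaks of ESCs and liver only and 1162 bp in peaks of all 4 cell types. Together they covered 15.2 Mb. Their median ESC score was 169, against 178 in all ESC peaks. Widths from 500 to 1000 bp held most of them, with 5094 members below 750 bp and 5129 above. Members made up 9.83% of the ESC peaks of 750 to 1000 bp but only 4.27% of those of 2500 bp or more. Since the rule works through overlap, which involves the width, these widths describe what the rule kept.

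On the brain side the scores were lower. Scores depend on the depth of a library, which is unknown, so they are not compared between lists as levels of 5hmC. The members met 15280 brain peaks with a median width of 1080 bp and a median score of 50.3. Of these brain peaks 20.2% had a score of 80 or more, close to the 21.1% of all brain peaks. A score of 80 is the lowest in the ESC and liver lists, whereas the brain and MEF lists reached down to 30. For 79.0% of the members the brain peak therefore scored below the level at which the ESC and liver lists begin, and the liver list holds no peak that weak. The overlap was usually large, with a median of 721 bp or 91.1% of the ESC peak, and the midpoints of both peaks lay a median of 202 bp apart.

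The boundary of the set was not sharp. The nearest MEF or liver peak was a median of 1306 bp away, the nearest MEF peak 1926 bp and the nearest liver peak 6798 bp. A MEF or liver peak lay within 1 kb of 42.5% of the members, and 15.5% of the brain peaks that the members met themselves touched a MEF or liver peak elsewhere along their length. Just inside the rule, 569 members overlapped brain by 100 bp or less, with a median ESC score of 143 and a median width of 766 bp. Just outside it, 981 ESC peaks with no MEF or liver overlap missed a brain peak by 100 bp or less, with a median score of 131 and width of 731 bp. On the other side, 1033 members had a MEF or liver peak within 100 bp (median score 164), and 783 ESC peaks with a brain peak were left out for a MEF or liver overlap of 100 bp or less (median score 152).

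Most members lay inside genes. A midpoint within the span of a protein-coding gene was found for 68.5% of them (67.8 to 69.2%), against 62.2% of all ESC peaks, 50.8% of peaks of ESCs only and 46.0% of peaks of ESCs and MEFs only. The share was 70.2% in peaks of ESCs and liver only and 77.8% in peaks of all 4 cell types. It was 61.1% in peaks of ESCs, MEFs and brain and 63.9% in peaks of ESCs, MEFs and liver, so the classes shared with an adult tissue lay on both sides of all ESC peaks. Introns held 52.5% of the members and 31.5% lay outside genes.

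Members lay in exons more often than ESC peaks as a whole, though not more often than peaks of ESCs and liver only. An exon held the midpoint of 15.9% of them (15.4 to 16.5%), against 12.6% of all ESC peaks and 6.91% of peaks of ESCs and MEFs only. The share was higher in peaks of ESCs and liver only (16.9%, 16.3 to 17.5%) and in peaks of ESCs, brain and liver (22.5%). Coding sequence alone accounted for 11.5%. Per base, members were 3.61 times as dense in exons as in introns, a ratio that was 3.02 for all ESC peaks, 3.77 for peaks of ESCs and liver only and 2.11 for peaks of ESCs and MEFs only. The difference from all ESC peaks was present at every level of the score. From the lowest to the highest quartile of ESC score, 13.1, 14.0, 15.1 and 22.8% of the members were exonic, beside 9.79, 10.8, 12 and 17.8% of all ESC peaks and 13.7, 15.8, 17.2 and 24.2% of peaks of ESCs and liver only.

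Promoters held a small share of the members. The midpoint lay within 1 kb of a protein-coding transcription start site (TSS) in 399 members or 2.57% (2.33 to 2.83%), against 2.98% of all ESC peaks, 3.70% of peaks of ESCs only and 3.47% of peaks of ESCs and liver only. The other classes that include brain had lower shares, with 2.29% in peaks of ESCs, MEFs and brain, 2.14% in peaks of all 4 cell types and 2.07% in peaks of ESCs, brain and liver. In the highest score quartile the order turned, with 4.07% of members (3.42 to 4.80%) and 3.67% of all ESC peaks, and these intervals overlapped. The promoter windows cover 42224384 bp, against 917625850 bp of introns, so the low share does not mean a low density. Per base, on a common scale, members had a density of 6.08 at promoters and 5.73 in introns. For all ESC peaks these densities were 7.06 and 5.41. The median distance from a member to the nearest TSS was 28.0 kb. This was longer than in all ESC peaks (24.7 kb) or peaks of ESCs and liver only (14.1 kb) and shorter than in peaks of ESCs and MEFs only (34.1 kb).

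Within genes of at least 5 kb, members leaned to the 3′ end. Of 10 equal parts of the span, the one next to the TSS held 7.40% of them (6.92 to 7.91%), and the share rose from part to part up to 14.5% in the last (13.8 to 15.2%). In all ESC peaks the first and last parts held 9.54 and 12.6%, and in peaks of ESCs only 10.6 and 11.2%. The full brain list had 8.44% in the first part and 12.4% in the last.

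**Figure D1:**
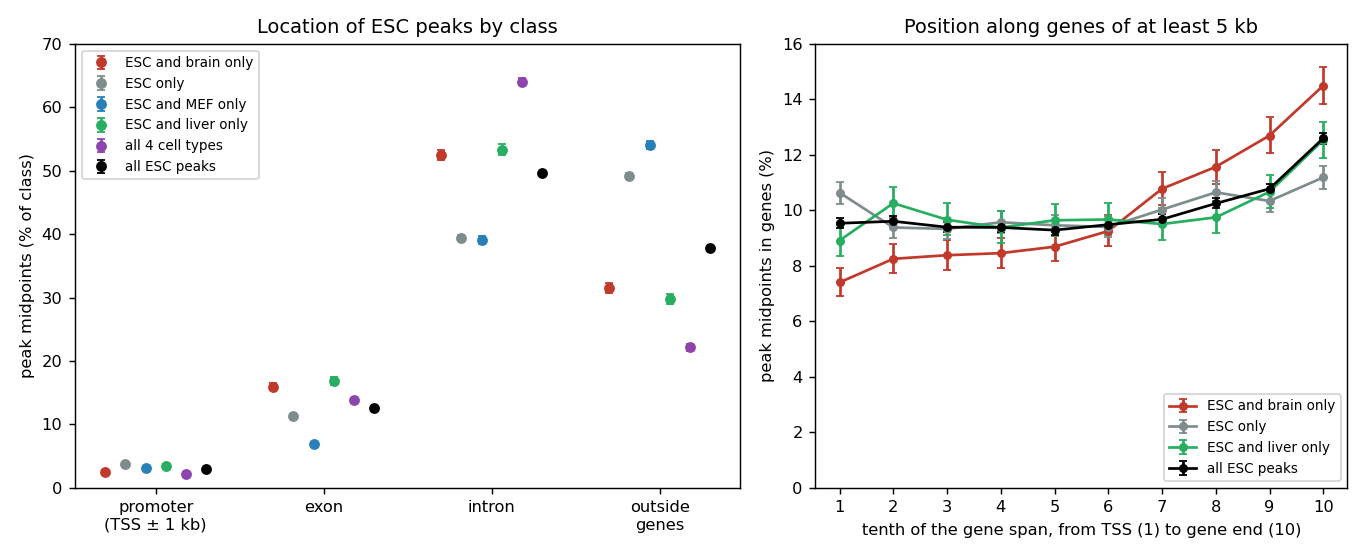
Left, share of peak midpoints (%) in promoters, exons, introns and outside genes for 6 sets of ESC peaks; right, share of genic midpoints (%) in each of 10 equal parts of the gene span for 4 of these sets. Points are shares and bars exact 95% intervals for counting error. Peaks of ESCs and brain only (red) had 15.9% of midpoints in exons and rose from 7.40% in the first part of genes to 14.5% in the last.

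The separate ESC libraries gave a check that the rule had not used. A shGFP peak met 49.6% of the members (48.8 to 50.4%), where the share over all ESC peaks was 56.4%, and a shSuz12 peak met 43.0%, where it was 47.1% over all ESC peaks. Both libraries met 28.1% of the members, 33.8% of all ESC peaks and 26.5% of peaks of ESCs and liver only. Neither library met 35.5% of the members, 30.4% of all ESC peaks and 35.8% of peaks of ESCs and liver only. Score was closely tied to this share. In the 4 quartiles of ESC score, from lowest to highest, a shGFP peak met 25.9, 37.8, 57.4 and 83.5% of the members, and 29.5, 43.1, 63.5 and 89.2% of all ESC peaks. Members were thus met somewhat less often than ESC peaks of the same quartile in each of the 4 quartiles. Peaks of ESCs and liver only were met by shGFP in 49.1% and peaks of all 4 cell types in 71.4%.

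**Figure D2:**
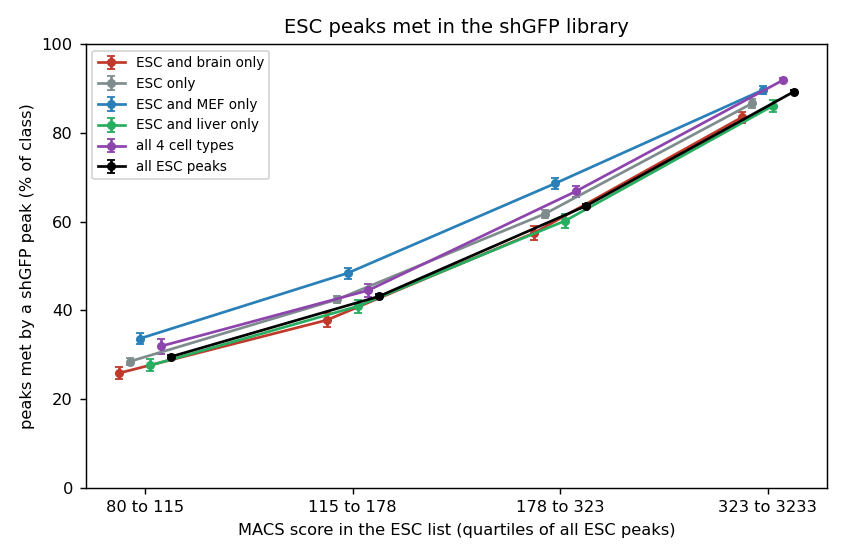
Share of ESC peaks met by a shGFP peak (%) in quartiles of the ESC MACS score, for 6 sets of ESC peaks drawn slightly apart for legibility. Points are shares and bars exact 95% intervals for counting error; the peaks of ESCs and brain only (red) went from 25.9% in the lowest quartile to 83.5% in the highest.

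Among the members that a shGFP peak met, 43.3% (42.2 to 44.4%) were met by no shSuz12 peak, beside 40% of all ESC peaks with a shGFP peak and 50.7% of peaks of ESCs only. The share without a shSuz12 peak fell with the ESC score, from 68.2% of members in the lowest quartile to 21.6% in the highest. It fell likewise in all ESC peaks with a shGFP peak, from 66.35 to 19.1%, so the fall was not particular to members. The shSuz12 list has narrower peaks and lower scores, with a median of 564 bp and 53.1 against 776 bp and 87.2 in shGFP, and with 1 library of each the hairpin and the library cannot be told apart.

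Members were spread over many genes, and a minority of genes held several. Of 22367 protein-coding genes, 4956 or 22.2% held at least 1 member in their span, 450 held at least 5, 92 at least 10 and 11 at least 20. The 12 genes with most members held 394 of the 10639 genic members, or 3.70%. Genes with a member were long, with a median of 45.7 kb against 24.2 kb for genes with an ESC peak. Genes with many ESC peaks are more likely to hold at least 1 member, so this difference is not read as a trait of members. Genes over 200 kb held 22.8% of the genic members, 21.1% of the genic ESC peaks and 9.75% of the genic peaks of ESCs and liver only. The share was 22.7% in peaks of all 4 cell types, 29.5% in peaks of ESCs and MEFs only and 33.7% in peaks of ESCs, MEFs and brain. Members were thus close to all ESC peaks in this.

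Gm20388 and Fgfr2, both among these 12, have annotated spans that take in many other genes. Gm20388 (ENSMUSG00000092329.1, chr8:122434741-126869622) is a predicted gene of 4435 kb that overlaps 74 other coding genes. It held 105 members among 1516 ESC peaks, a share of 6.93%, and 43 of these members lay in no other gene. Fgfr2, a receptor for fibroblast growth factors, is annotated over 3009 kb that overlap 32 other coding genes, and only 7 of its 35 members among 382 ESC peaks (9.16%) lay in no other gene. Neither share exceeded the 9.95% that members made up of all ESC peaks in protein-coding genes.

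The other 10 genes held from 19 to 42 members, and in each of them members made up more than 21% of the ESC peaks. Several encode proteins of the neuronal surface. Cdh13, which encodes a cadherin anchored in the membrane by a lipid, held 42 members among 148 ESC peaks (28.4%, 21.3 to 36.4%) over 1041 kb at chr8:120807633-121848821. It had 173 brain, 133 MEF and no liver peaks. Cdh4, which encodes another cadherin of the nervous system, held 20 of 93 and also had no liver peak. Grik3, which encodes a kainate-type glutamate receptor subunit, held 25 of 83 (30.1%, 20.5 to 41.2%). Nrxn2, which encodes a presynaptic adhesion protein, held 20 of 45 (44.4%, 29.6 to 60%). Igsf21, whose product binds neurexin at inhibitory synapses, held 22 of 74. These genes had few liver peaks or none, with 1 in Grik3, 1 in Nrxn2 and 15 in Igsf21. In part this follows from the choice of genes by members, since the rule keeps only ESC peaks that no liver peak overlaps.

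Of the remaining genes, Camta1 and Zfp536 encode transcription factors expressed in brain. Camta1, over 802 kb at chr4:150433633-151235985, held 42 members among 161 ESC peaks (26.1%, 19.5 to 33.6%), 4 of them with the midpoint in an exon. It had 185 brain, 162 MEF and 43 liver peaks. Its members ranged from 80.6 to 847 in ESC score with a median of 141. Zfp536 held 21 of 69. Crtac1, which encodes a secreted protein first found in cartilage, held 21 of 49 (42.9%, 28.8 to 57.8%), with 31 brain peaks and no liver peak over 149 kb. Abcc4, an efflux pump for organic anions, held 22 of 73, with 23 liver peaks and 14 ESC peaks shared by all 4 cell types. The last, 1700106N22Rik, held 19 of 62 with 1 liver peak.

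**Figure D3:**
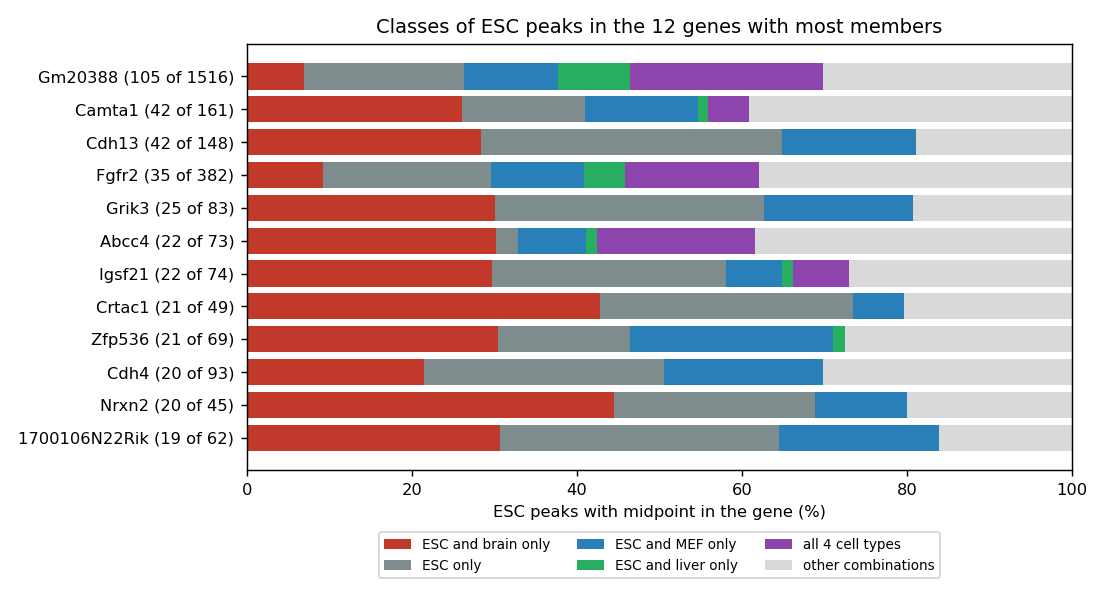
Classes of the ESC peaks (% of those with midpoint in the gene) for the 12 genes with most members, with the number of members and of ESC peaks in parentheses. Red is the share of peaks of ESCs and brain only, which was 6.93% in Gm20388, 9.16% in Fgfr2 and above 21% in the other 10 genes; each gene is 1 library per cell type with no replicates.

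The second ESC library met part of the members in each of these 10 genes, where it met 48.3% of the members in all protein-coding genes. A shGFP peak met 11 of the 25 members of Grik3, 12 of the 20 of Nrxn2, 21 of the 42 of Camta1, 11 of the 22 of Igsf21 and 13 of the 21 of Zfp536. It met 12 of the 22 in Abcc4, 9 of the 21 in Crtac1, 9 of the 19 in 1700106N22Rik, 14 of the 42 in Cdh13 and 8 of the 20 in Cdh4. Differences between the genes were not tested. A shSuz12 peak met 43.0% of all members and 47.1% of all ESC peaks. Among these genes it met 15 members in Grik3, 12 in Nrxn2, 17 in Camta1, 24 in Cdh13 and 12 in Igsf21. It met 13 in Zfp536, 14 in Crtac1, 9 in 1700106N22Rik, 8 in Abcc4 and 5 in Cdh4.

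Grik3 shows how the members lie within one gene. Its span (ENSMUSG00000001985.8, chr4:125167944-125391417, plus strand) is 224 kb long, and ESC peaks covered 44.3% of it, brain peaks 26.1%, MEF peaks 19.5% and the single liver peak 0.697%. Its 25 members covered 13.2%, were 616 to 2321 bp wide and scored between 80.8 and 825 in ESCs, with a median of 299. They began 10472 bp from the TSS and ended 218416 bp from it, so none lay at the promoter and they were spread along nearly the whole gene. The member nearest the gene end had its midpoint in an exon and the other members were intronic. In brain the peaks that met these members scored between 30.5 and 426, with a median of 54.8. When a score of at least 80 was asked of every list, Grik3 had 7 members.

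**Figure D4:**
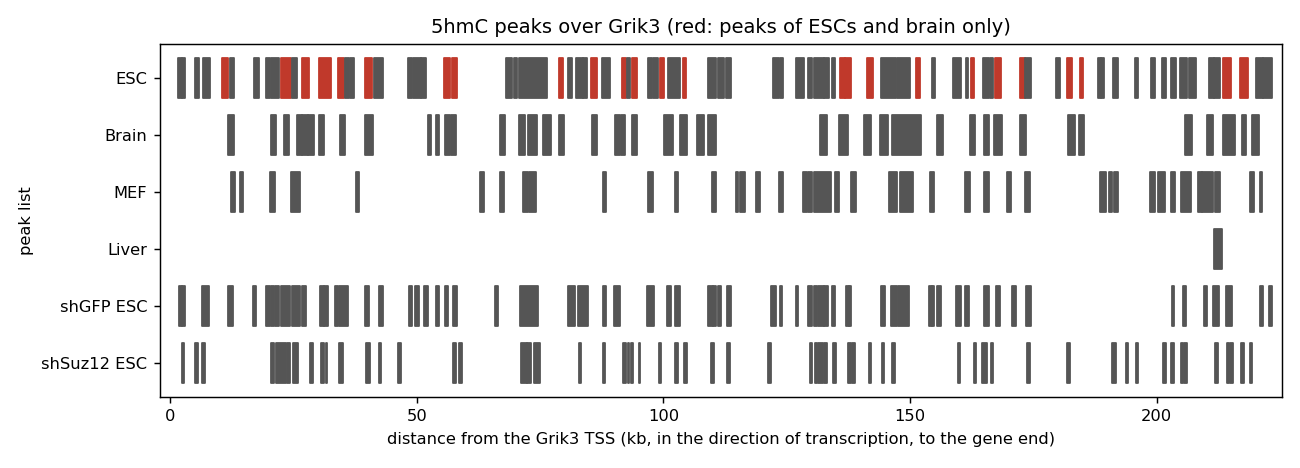
Peaks of the 6 lists over Grik3, by distance from its TSS in kb in the direction of transcription; each bar is a peak drawn to scale and members are red. The 25 members are spread from 10472 to 218416 bp from the TSS, and the liver list has 1 peak in the gene.

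In Nrxn2 (chr19:6418731-6544169, 125 kb) ESC peaks covered 49.4% of the span, brain peaks 37.7%, MEF peaks 13.2% and the liver peak 0.531%. The 20 members covered 18.3%, and 6 of them had their midpoint in an exon. The member of highest ESC score in Nrxn2 (1011) was exonic, 2774 bp wide, and was met by peaks of both other ESC libraries. In Igsf21 the highest ESC score of a member was 2515, the highest also among all 74 ESC peaks of that gene.

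Counted per length, short genes came first. Among genes with at least 5 members, the densest was Kif7, a kinesin that regulates Hedgehog signalling in the cilium, with 5 members in 16.1 kb or 31.1 per 100 kb. Atp8b2, a phospholipid flippase subunit, had 7 in 24.0 kb (29.1 per 100 kb), and Parp1, the DNA-damage sensor that makes poly(ADP-ribose), had 9 in 32.3 kb (27.9). Fam167a had 8 in 29.1 kb (27.5), and Xkr5, Dis3, Tctn1 and Celf5 had 5 each, between 21.3 and 27.4 per 100 kb. Dis3 encodes a nuclease of the RNA exosome, Tctn1 a protein of the base of the cilium and Celf5 an RNA-binding splicing regulator. The members of Celf5 were strong in ESCs, with a median score of 847 and a shGFP peak at all 5, whereas no shGFP peak met any of the 5 in Dis3, where the median was 213. In Kif7, Fam167a, Xkr5 and Celf5 no liver peak was listed, which a choice of genes by members favours through the rule.

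Ranked by share, Fam167a led the genes with at least 10 ESC peaks, with members at 8 of its 10 peaks (80%, 44.4 to 97.5%). Ptchd2 followed with 8 of 11 (72.7%, 39.0 to 94.0%) and Atp8b2 and Klhdc4 with 7 of 11 each (63.6%, 30.8 to 89.1%). Parp1 had 9 of 15, Psd2 and Uchl3 had 6 of 10 each, and Tnfrsf21, a death receptor of the TNF family, had 10 of 17. The members of Klhdc4 lay within the span of Gm20388 and are counted in both. With so few peaks per gene the intervals are wide, and the order within this group was not resolved.

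Promoter members were found at 391 genes, and 199 of the 399 covered the TSS itself. The 8 of highest ESC score belonged to Plvap, 4933416C03Rik, Syce3, Drd5, F2, Slc12a3, Aldoart2 and 2010110P09Rik. At Plvap, which encodes a protein of the endothelial diaphragm, the peak ran from 1837 bp upstream to 850 bp downstream of the TSS and scored 2536 in ESCs and 55.6 in brain. At Syce3, a component of the synaptonemal complex of meiosis, a peak of 1462 bp scored 1576 in ESCs and 43.3 in brain. The promoter peak of Drd5, a dopamine receptor gene with brain expression, scored 1323 in ESCs and 63.8 in brain. F2 (prothrombin, made in liver) and Slc12a3 (a salt transporter of the kidney) had peaks of 2799 and 2563 bp that spanned the full 2 kb around the TSS. A shGFP peak met 64.4% of all promoter members (59.5 to 69.1%), beside 66.7% of all ESC peaks at promoters, a value within that interval. Over peaks at any location, a shGFP peak met 83.5% of the members and 89.2% of all ESC peaks in the highest score quartile. It met each of these 8, which were picked for their ESC score. Their brain scores lay between 37.6 and 91.5.

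**Figure D5:**
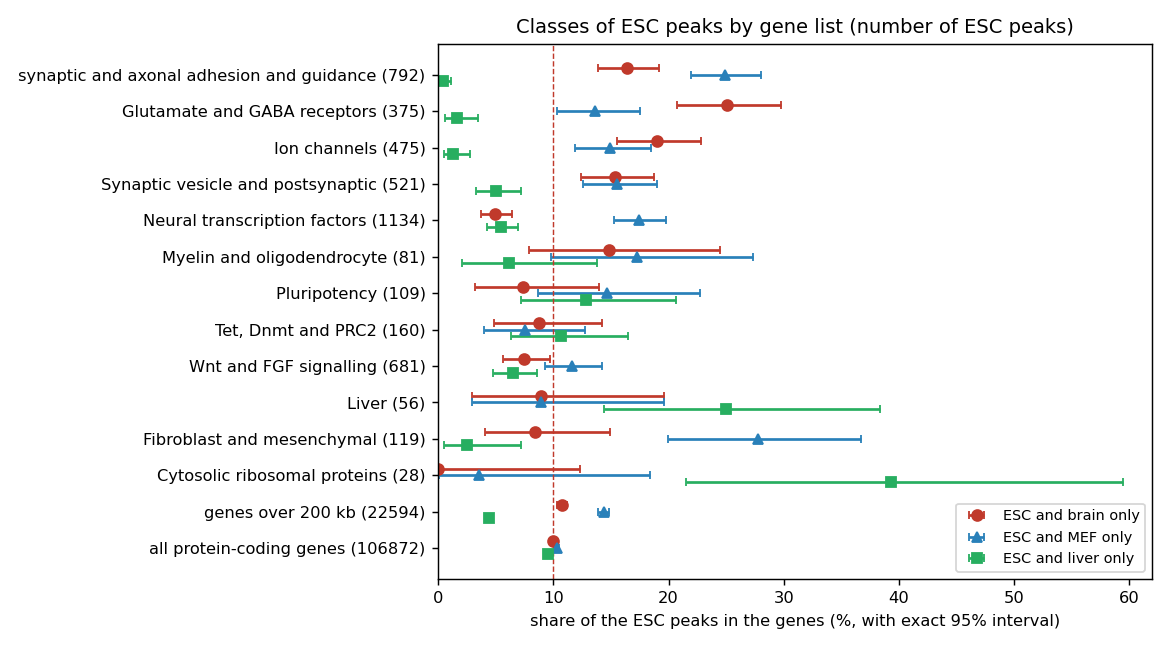
Share of ESC peaks (%, with exact 95% intervals for counting error) that belong to ESCs and brain only (circles), ESCs and MEFs only (triangles) or ESCs and liver only (squares), among the ESC peaks in the genes of 12 lists, in genes over 200 kb and in all protein-coding genes. The dashed line marks members in all protein-coding genes, 9.95%; the 4 lists of neuronal surface and synaptic genes lie above it and the list of neural transcription factors lies below.

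The lists of neuronal receptors, ion channels, synaptic proteins and adhesion proteins held more members than the 9.95% of genic ESC peaks seen over all protein-coding genes, whereas the list of neural transcription factors held fewer. Of the 375 ESC peaks in 33 glutamate and GABA receptor genes, the receptors for the main excitatory and inhibitory transmitters, 94 were members (25.1%, 20.8 to 29.8%). Grik3, Grik4 (19 of 60 peaks) and Grid1 (13 of 25) held most of these, and without these 3 genes the share was 17.9% (12.9 to 23.8%). In all, 16 of the 33 genes held a member, others being Gabbr2 with 7, Grin2b and Grm4 with 6 each and Grik5 with 5. Of the same 375 peaks, 6 (1.60%) were peaks of ESCs and liver only and 51 (13.6%) of ESCs and MEFs only. Over all protein-coding genes those shares were 9.49 and 10.29%. Peaks of ESCs and MEFs only also exceeded their genic share in the channel (14.95%), synaptic (15.55%) and adhesion (24.9%) lists. A share above the genic one was thus not particular to members. Brain, MEF and liver peaks numbered 494, 461 and 151 in the receptor and 815, 925 and 149 in the channel genes. They numbered 628, 894 and 303 in the synaptic and 1824, 1989 and 247 in the adhesion genes. The neural transcription factor genes had 1557, 2366 and 1193, and all protein-coding genes 107619, 119428 and 93581. The rule keeps only ESC peaks without a liver peak, so few liver peaks favour members. Its part in these shares was not tested. Peaks of all 4 cell types made up 4% of the receptor, 3.79% of the channel, 6.72% of the synaptic and 4.54% of the adhesion peaks, against 18.4% over all protein-coding genes.

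Ion channel genes gave 90 members of 475 ESC peaks (18.9%, 15.5 to 22.8%) in 21 of 34 genes. Those with most were the calcium channel genes Cacna1c, with 13, and Cacna1a, with 8, and Kcnip1, which encodes a subunit of potassium channels, with 9. Genes of synaptic vesicles and the postsynaptic density gave 80 of 521 (15.4%, 12.4 to 18.7%) in 19 of 33 genes, led by the scaffold genes Dlgap4 (19), Dlgap2 (12) and Dlgap1 (6). Without these 3 the share was 13.0% (9.59 to 17.1%), an interval that takes in 9.95%. With the better-scoring 50% of every list, the share was 11.97% (8.44 to 16.3%), beside 10.7% over all protein-coding genes. Adhesion and axon guidance genes gave 130 of 792 (16.4%, 13.9 to 19.2%) in 26 of 46 genes, led by Nrxn2, the teneurin gene Odz3 (13) and Dscaml1 (10). In that list the peaks of ESCs and MEFs only were more numerous, with 197 (24.9%), and those of ESCs and liver only were 3 (0.379%).

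These genes are long, with a median length of 278 kb for the receptors, 326 kb for the channels and 576 kb for the adhesion genes, so length was read beside them. In all genes over 200 kb, members were 10.7% of the ESC peaks (10.3 to 11.1%), peaks of ESCs and MEFs only 14.4% and peaks of ESCs and liver only 4.38%. The 3 lists had larger shares of members than long genes as a whole.

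The other lists had shares below the genic one or intervals that took it in. Neural transcription factor genes held 56 members of 1134 ESC peaks (4.94%, 3.75 to 6.36%), and 17 of these were in Auts2. In the same genes 25.8% of the ESC peaks were shared by all 4 cell types. Myelin genes had 12 of 81 (14.8%, 7.90 to 24.4%), 4 of them in Fa2h and 4 in Mbp, which encodes myelin basic protein, with an interval that included 9.95%. Pluripotency genes had 8 of 109 (7.34%, 3.22 to 13.9%), with 6 in Esrrb, an orphan receptor of the ESC network. Genes of the Tet, Dnmt and PRC2 enzymes had 14 of 160 (8.75%, 4.87 to 14.2%), Wnt and FGF signalling genes 51 of 681 (7.49%, 5.63 to 9.73%), of which 35 were in the broad span of Fgfr2, fibroblast genes 10 of 119 (8.40%) and liver genes 5 of 56 (8.93%). The 80 ribosomal protein genes had 0 members among 28 ESC peaks, which allows a share of up to 12.3%.

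Members were found on all nuclear chromosomes. Chromosome 8 held 8.65% of the members and 8.85% of the ESC peaks, but 5.78% of the brain peaks. This bears on Gm20388, Cdh13, Xkr5, Klhdc4, Plvap and Slc12a3, which lie there. It bears also on genes of the lists that lie there, among them Odz3, Dlgap2 and Cacna1a. The receptor list has no ESC peak on chromosome 8. Without that chromosome the adhesion, channel and synaptic lists had members at 19.2, 20 and 15.4% of their ESC peaks. The part of chromosome 8 in the counts of the genes on it was not tested. Chromosome X held 1 member among 328 ESC peaks. Of the windows of 1 Mb with an ESC peak, 1717 of 2324 held a member and 50 held at least 30. The richest, at 156 to 157 Mb of chromosome 2, had 55 members among 230 ESC peaks (23.9%), of which 19 lay in Dlgap4 and 12 in Epb4.1l1, a gene for a cytoskeletal adaptor of neurons. The next, with 53 members each, were on chromosome 4 (305 ESC peaks, with 11 members in Nphp4, a gene of the cilium) and on chromosome 8 (293 ESC peaks, with 12 members in Mcf2l). The fourth, on chromosome 1, had 52 among 264, with 14 in Nfasc, which encodes an adhesion protein of the node of Ranvier.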

How the data were processed

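5hmC was measured by GLIB-Seq in 1 library each of ESCs, MEFs, brain, liver, shGFP ESCs and shSuz12 ESCs; the RNA-Seq libraries were not analysed here. According to the methods and the submitters' processing notes, reads were processed with CASAVA 1.8, mapped to mm9 with Bowtie 0.12.7 keeping unique hits, collapsed for redundancy, and called as peaks with MACS 1.4.1 in each library. The deposited value of each peak is its MACS score, taken as 10 times the negative log10 of the p-value. Thresholds and control samples are not given in the sources used here. The lists hold no read counts, so depth is unknown, and lists with a lower threshold (lowest score 30 in MEFs and brain, 80 in ESCs and liver) reach weaker peaks. Mitochondrial peaks were left out.

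From these lists, ESC peaks were classed by an overlap of at least 1 bp with MEF, brain and liver peaks. Midpoints were placed in promoters (TSS ± 1 kb), exons, introns and spans of the 22367 protein-coding genes of the GENCODE annotation (assembly NCBIM37, which is mm9). Sequences were read from the same assembly. A midpoint in overlapping genes counted for each. Named genes were the 12 with most members, the 8 with most members per 100 kb (at least 5 members), the 8 with the highest share of members (at least 10 ESC peaks), the 8 with the strongest promoter member, and those with most members in each list. The windows and the Grik3 map were chosen after their values were seen. The members and lists were chosen with earlier results of these data known. No test between conditions was possible with 1 library each.

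Alternatives were a common score of at least 80, the better-scoring 50% of every list, lists cut to equal length by score, an overlap of 50% of both peaks, a margin of 1 kb to MEF and liver peaks, overlap in place of midpoints, other promoter widths and all annotated genes. Figures were drawn with matplotlib 3.10.9, intervals computed with scipy 1.17.1 and tables handled with pandas 2.3.3 and numpy 2.4.6 under Python 3.11.15. The steps were tested on simulated data of 40000 peaks, in which all 5862 simulated members were recovered.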

Additional observations from a re-analysis of the deposited data

How the results depend on the processing

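No paired analysis was possible because there is only 1 library of each kind. When a score of at least 80 was asked of all lists, there were 5883 members, with a median width of 916 bp, a promoter share of 1.90%, a gene span share of 77.1% and a shGFP share of 55.8%. The better-scoring 50% of every list gave 8091 members, 1195 bp wide, 19.0% in exons and 73.6% in gene spans. Equal numbers of peaks gave a width of 961 bp and a shGFP share of 59.8%. An overlap of 50% of both peaks gave 10015 members, 866 bp, 66.9% in gene spans and 50.7% met by shGFP. Leaving out members with a MEF or liver peak within 1 kb gave 8940 members, 843 bp, 16.6% in exons and 66.8% in gene spans. Overlap in place of midpoints gave 3.85% at promoters, 32.4% in exons and 69.3% in gene spans. Promoters of 500 bp or 2 kb on each side held 1.23 or 5.03%, and all annotated genes gave 3.88, 16.7 and 70.4% for promoters, exons and gene spans. An overlap of 50% of both the ESC and the shGFP peak lowered its share to 41.1%. Of the alternatives chosen after seeing the data, leaving out chromosome 8 gave a width of 827 bp, and keeping only members with a shGFP peak gave 7699 members, 962 bp, 3.34% at promoters and 66.8% in gene spans. The cause of these shifts was not tested, beyond the fewer peaks that the stricter settings leave by construction. The number of members was 13325 with equal numbers of peaks and 14191 without chromosome 8. The shares not listed here stayed within the counting interval of the main value.

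Of the 12 genes with most members, 5 to 10 stayed among the top 12 under these alternatives. The receptor list held members at 8.27% of its ESC peaks when scores of at least 80 were asked of all lists, where all protein-coding genes gave 4.25%. Under the others it held members at 15.7 to 27.6%, where all protein-coding genes gave 5.59 to 11.09%. The list of synaptic vesicle and postsynaptic genes had 11.97% (8.44 to 16.3%) with the better-scoring 50% of every list, where all protein-coding genes gave 10.7%. The unequal score thresholds, the unknown depth and the lack of replicates limit every overlap: a peak missing from the MEF or liver list is a peak not called, which does not show that 5hmC is absent there.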
